A study of Mus musculus with 12 samples.

Results

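The Mef2 family was described here in chromatin profiles of differentiating C2C12 cells, a line derived from mouse muscle that grows as single myoblasts and fuses into multinucleated myotubes when serum is lowered. Its members are the 4 genes Mef2a, Mef2b, Mef2c and Mef2d, taken by name from the 21938 protein-coding genes among the 55413 genes of the GENCODE M21 annotation of mm10. MBD2, a protein that binds methylated CpG and belongs to the NuRD repressor complex, and H3K4me3, a histone mark found at the starts of active genes, had been mapped by CUT&RUN, in which an antibody tethers a nuclease that cuts out the DNA around its target. The states were day 0, day 1 of differentiation in medium with 2% horse serum, and the myotubes and reserve cells of day 5, which a short trypsin treatment had parted. Reserve cells are the mononucleated cells that stay unfused in such cultures. Each antibody and state had 1 library of this single line, so no value below has a replicate check and no test was made. IgG libraries were not analysed here. In a bulk culture, fewer cells with a mark and less of it per cell cannot be told apart.

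MEF2 proteins bind A/T-rich DNA through a MADS box and an adjoining MEF2 domain, which all family members share. In skeletal muscle they work with the MyoD family of transcription factors, and their targets include genes of the sarcomere and of energy metabolism. Class IIa histone deacetylases hold MEF2 proteins in a repressive state, and kinases activated by calcium release them, while MAP kinases phosphorylate MEF2 proteins directly.

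A promoter was the 1 kb either side of an annotated transcript start, and it was called marked when a peak of the deposited list overlapped it by at least 1 bp. Starts of a gene that followed each other within 500 bp were joined as a start group, numbered from the 5′ end of the gene. The family had 20 such groups, 5 in Mef2a, 2 in Mef2b, 10 in Mef2c and 3 in Mef2d. Peak length is in bp, and fold enrichment is the authors' ratio of the fragment pileup at the summit to the local background, used here to rank peaks within a list. Peaks of H3K4me3 numbered 19218 (day 0), 17665 (day 1), 26034 (myotubes) and 15920 (reserve cells). Their median folds were 29.0, 38.6, 9.55 and 39.8, so that folds are best read against the library they come from. Those of MBD2 numbered 14948 (day 0), 452 (day 1), 288 (myotubes) and 111 (reserve cells). As a check of the labels, 6 of 6 myotube markers carried promoter H3K4me3 in myotubes and 4 of 6 in reserve cells. Among these, Ckm, muscle creatine kinase, had 5001 bp in myotubes, against 529 bp in reserve cells, and Myh3, embryonic myosin, had 10192 bp in myotubes and no peak in reserve cells. Klhl41 had 7194 bp in myotubes and no peak in reserve cells. Acta1 had 9377 bp in myotubes, against 1420 bp in reserve cells, Tnnt1 9191 against 4367 bp, and Myom1 11014 against 5230 bp. Myom1 went the other way in fold, with 50.4 in myotubes, against 61.9 in reserve cells. Of 5 myoblast and reserve cell markers, 4 were marked in myotubes and 5 in reserve cells. Cd34 was the one without a peak in myotubes. Pax7, the satellite cell factor, had 4326 bp in myotubes, against 15513 bp in reserve cells, and Myf5 had 3578 bp in myotubes, against 5605 bp in reserve cells. Vcam1 had 2303 bp in myotubes, against 4085 bp in reserve cells. Myod1 went the other way in length, with 5282 bp in myotubes, against 3943 bp in reserve cells, and Myf5 did so in fold, with 21.6 in myotubes, against 15.1 in reserve cells. Of 3 markers each for fibroblasts, adipocytes, blood and neurons, 2, 1, 1 and 1 were marked in myotubes and 2, 1, 0 and 0 in reserve cells. Adipoq, Fabp4, Ptprc, Spi1, Rbfox3 and Dpt had no peak in any library.

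All 4 Mef2 genes carried promoter H3K4me3 in all 4 states. Of all protein-coding genes, 57.3% (day 0), 57% (day 1), 58.2% (myotubes) and 55.5% (reserve cells) did so. With the stronger 50% of each list kept, by −log10 q, Mef2c was not marked at day 1, and neither Mef2c nor Mef2a was marked in reserve cells. That cut keeps fewer peaks in shorter lists, and the share of all protein-coding genes it leaves marked was not computed. With 15920 peaks in every H3K4me3 list, all 4 Mef2 genes were marked in each state. With all peaks, the family neither gained nor lost a marked gene in any comparison. Over day 0, 1.72% of unmarked protein-coding genes gained and 1.87% of marked ones lost a peak at day 1, 5.76% and 2.72% did so in myotubes, and 1.38% and 4.12% in reserve cells. Over day 1 these shares were 5.69% and 2.13% in myotubes and 0.985% and 3.26% in reserve cells, and for myotubes over reserve cells they were 7.66% and 1.32%. The members differed in where the mark lay, how far it reached and which of their starts it covered. Marked start groups numbered 5 (day 0), 5 (day 1), 6 (myotubes) and 5 (reserve cells) of 20, beside 33.1%, 32.6%, 34.2% and 31.2% of the start groups of all protein-coding genes. Mef2a, Mef2b and Mef2d each used 1 start group in this sense throughout, and the additional one in myotubes belonged to Mef2c.

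**Figure D1:**
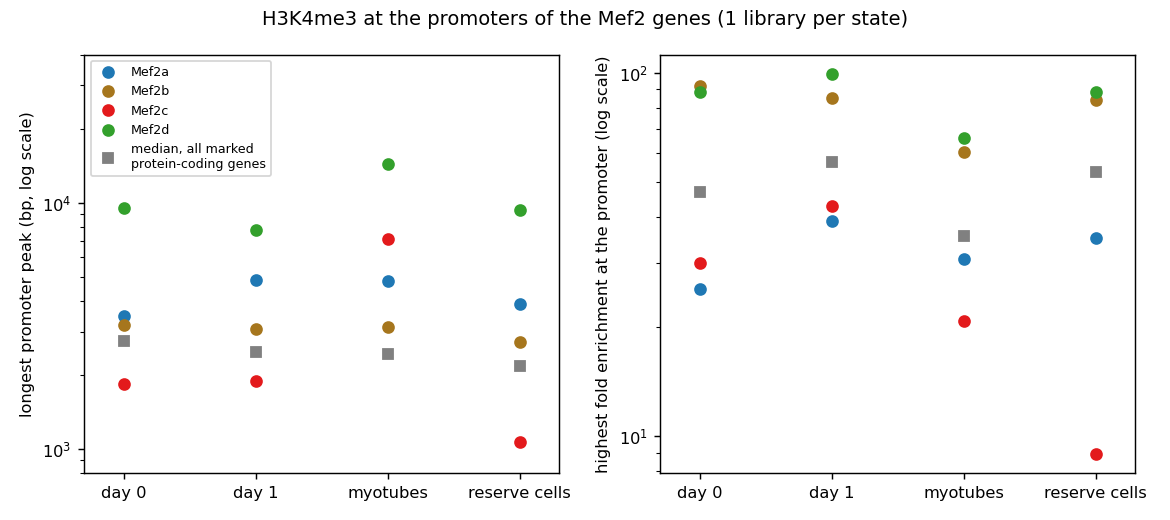
Longest promoter H3K4me3 peak (left, bp, log scale) and highest promoter fold enrichment (right, log scale) of the 4 Mef2 genes in each state, with the median of all marked protein-coding genes as squares; each point is 1 library. Mef2d lies highest in length in every state, and Mef2c lies below the median length except in myotubes, where it reaches 7150 bp.

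The sequences just upstream of the starts are given for the groups on which the results turn, 250 bases each, from the RefSeq genome GRCm38.p6 (mm10), written 5′ to 3′ along the gene with every CpG in capitals. They are shown because the family splits into CpG-rich starts, at Mef2a and Mef2d, and CpG-poor ones, at the myotube start of Mef2c. Mef2c start 1 is chr13:83503784-83504033 (+), Mef2c start 3 is chr13:83524041-83524290 (+), Mef2d start 1 is chr3:88142122-88142371 (+), Mef2a start 1 is chr7:67372859-67373108 (−), and Mef2b start 2, which carried no peak in any library, is chr8:70152528-70152777 (+).
Mef2c start 1: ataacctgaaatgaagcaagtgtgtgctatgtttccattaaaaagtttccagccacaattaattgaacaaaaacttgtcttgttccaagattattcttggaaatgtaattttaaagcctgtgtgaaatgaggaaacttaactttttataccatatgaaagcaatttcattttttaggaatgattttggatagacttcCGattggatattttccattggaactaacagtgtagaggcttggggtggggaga
Mef2c start 3: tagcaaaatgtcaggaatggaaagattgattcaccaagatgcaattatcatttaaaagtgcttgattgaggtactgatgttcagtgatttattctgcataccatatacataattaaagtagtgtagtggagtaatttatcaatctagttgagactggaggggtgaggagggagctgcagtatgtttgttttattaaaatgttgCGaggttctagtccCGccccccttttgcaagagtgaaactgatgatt
Mef2d start 1: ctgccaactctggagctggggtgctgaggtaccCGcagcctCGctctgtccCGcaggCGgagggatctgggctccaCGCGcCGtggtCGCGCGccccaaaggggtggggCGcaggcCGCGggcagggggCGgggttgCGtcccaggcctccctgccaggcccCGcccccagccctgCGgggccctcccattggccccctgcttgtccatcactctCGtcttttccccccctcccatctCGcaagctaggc
Mef2a start 1: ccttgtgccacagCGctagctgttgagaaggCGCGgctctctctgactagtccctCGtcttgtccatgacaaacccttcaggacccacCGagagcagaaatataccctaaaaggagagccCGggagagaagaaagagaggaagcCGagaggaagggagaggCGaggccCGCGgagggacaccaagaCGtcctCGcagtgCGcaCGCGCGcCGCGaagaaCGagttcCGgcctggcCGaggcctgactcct
Mef2b start 2: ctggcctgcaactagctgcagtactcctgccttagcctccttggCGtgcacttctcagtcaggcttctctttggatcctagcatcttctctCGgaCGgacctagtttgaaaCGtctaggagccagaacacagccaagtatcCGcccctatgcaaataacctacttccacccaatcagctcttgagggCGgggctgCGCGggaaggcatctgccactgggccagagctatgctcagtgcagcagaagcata
These stretches held 1, 2, 19, 21 and 8 CpGs in the order printed, with GC contents of 33.6%, 37.6%, 73.2%, 61.6% and 55.6%. In none of them was the MEF2 motif (CTA, 4 bases of any kind, TAG) or the E-box CAGCTG of the MyoD family found on either strand. The motif GGGCGG, a GC-box, occurred on either strand 1 time upstream of Mef2c start 3 and 2 times upstream of each of Mef2d start 1 and Mef2b start 2. Among the same stretches of all 52546 start groups of protein-coding genes, 3.57% held the MEF2 motif, 13.2% the E-box and 23.0% the GC-box.

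Mef2c encodes the member that heart development and the integrity of skeletal muscle fibres depend on in mice. Its H3K4me3 lay at 2 regions 20257 bp apart, of which the upstream one was marked in myotubes alone and the downstream one in all 4 states. Start 1, the most upstream group, with 6 transcripts beginning between 83504034 and 83504240 on chromosome 13, was covered in myotubes by a peak from 83502165 to 83509314, 7150 bp long with fold 20.7. No H3K4me3 peak lay within 10 kb of start 1 at day 0, at day 1 or in reserve cells. The peak reached 1.87 kb upstream of the first start and 5.28 kb into the gene, and its summit lay in an intron, 1745 bp past the first start. With the summit rather than any overlap required in the promoter, start 1 would thus not be called.

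Appearance of a new marked start at an already marked gene was uncommon. Among unmarked start groups of protein-coding genes that had another group marked in both states, 2.93% gained a peak in myotubes over day 0 with no earlier H3K4me3 within 5 kb, 432 of 14734. Within those 432 groups, 8 had a longer peak than Mef2c start 1 and 49 a higher fold, and the medians were 776 bp and fold 5.40. Over day 1 the share was 2.75%, and over reserve cells 3.38%. In each of these comparisons 1 new group was longer and 17 had a higher fold. Mef2c start 1 was thus among the longest of the new myotube start groups, with a fold well above their median.

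At start 3, 10 transcripts begin between 83524291 and 83524920, and start 2, at 83523473, lies in reach of the same peaks. Here the longest H3K4me3 peak measured 1829 bp (day 0, 83523364 to 83525192), 1881 bp (day 1), 1095 bp (myotubes, 1 of 3 peaks at start 3) and 1065 bp (reserve cells). The folds were 30.0, 43.1, 7.07 and 8.93, and the pileups behind them were 135, 97, 21 and 19 fragments. Both day 5 fractions were therefore lower at this region than both earlier states. Even in those the fold was modest, above that of 23.2% (day 0) and 31.8% (day 1) of marked start groups of protein-coding genes. Median pileups of the libraries were 96, 104, 24 and 91, so the low value in reserve cells came from a library whose peaks were in general about as high as those of day 0. The local background under these peaks was 3.54, 1.27, 2.11 and 1.24 fragments per base, highest at day 0.

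Set against all start groups of protein-coding genes marked in both states, the ratio of the fold at start 3 was low for day 5 cells of either kind. It was 0.236 for myotubes over day 0, above that of 1.69% of 16538 groups, whose median was 0.753. For reserve cells over day 0 it was 0.298, above 1.48% of groups with a median of 1.05. Over day 1 the ratio was 0.164 in myotubes and 0.207 in reserve cells, above 0.575% and 0.444% of groups, with medians of 0.646 and 0.900. Between the 2 day 5 fractions it was 0.792, myotubes over reserve cells, against a median of 0.708. In myotubes a new start was thus marked while the longest peak at the older one was short and low. Covered bases in the start 3 window were 1829 (day 0), 1881 (day 1), 1714 (myotubes, in 3 peaks) and 1065 (reserve cells). In reserve cells the peak at the older start was short and low with no other start marked. The ratios over day 0 share 1 library, as do those over day 1.

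**Figure D2:**
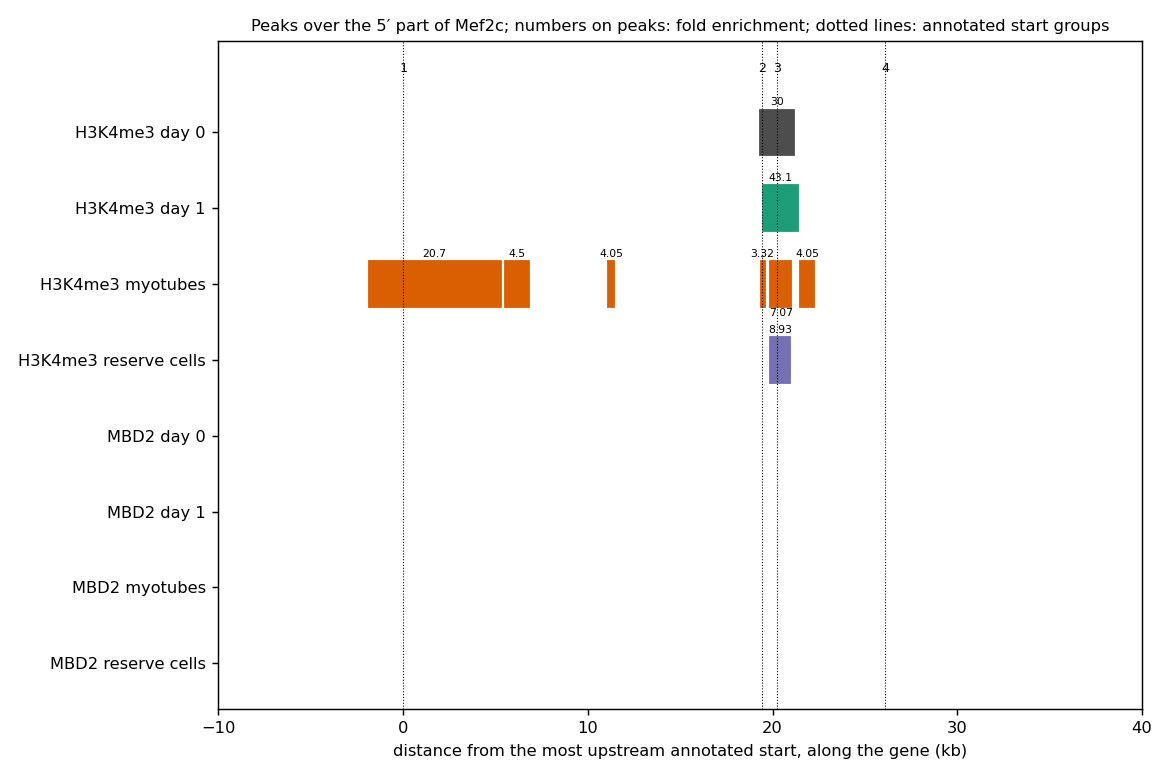
Peaks of the 8 libraries over the 5′ part of Mef2c, by distance in kb from its most upstream annotated start; bars are peaks drawn to scale, numbers their fold enrichment, dotted lines the first 4 start groups. The 7150 bp peak at start 1 is seen in myotubes. The longest peaks around starts 2 and 3 are 1829 and 1881 bp long at day 0 and day 1 and 1095 and 1065 bp in myotubes and reserve cells.

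Around these regions the myotube list held further, weaker Mef2c peaks. Just past the start 1 peak lay one of 1261 bp (fold 4.50), and another of 370 bp (4.05) followed about 11 kb into the gene. Beside start 3 were peaks of 230 bp (3.32) and 763 bp (4.05), and about 100 kb into the gene lay peaks of 700 bp (4.95) and 471 bp (5.85), where day 0 had 1 of 285 bp (4.45). Over Mef2c as a whole, peaks numbered 2 (day 0), 1 (day 1), 8 (myotubes) and 1 (reserve cells), and covered 2114, 1881, 12040 and 1065 bp. The myotube list holds the most peaks of the 4 and many weak ones, and 7 of these 8 had a fold below that library's median of 9.55. The start groups further in, from 83530138 onward, carried no H3K4me3 peak in any state.

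CpG content parted the 2 Mef2c regions in wider windows and over whole peaks. It hardly did in the 250 bases upstream of the starts, with 1 CpG at start 1 and 2 at start 3. The 1 kb either side of start 1 held 19 CpGs, more than 26.6% of promoter windows of protein-coding genes, and that of start 3 held 84, more than 81.2%, with a median of 31 over all windows. The whole start 1 peak had 6.29 CpGs per kb and a GC content of 35.1%, and the day 0 peak at start 3 had 44.3 per kb and 50.8%. The start 1 peak contained 2 MEF2 motifs, 1 E-box and no GC-box, and the day 0 start 3 peak 1, 0 and 4. In windows of 2 kb around start groups of protein-coding genes, 25.9% held a MEF2 motif, 64.2% an E-box and 49.1% a GC-box, so that such matches are common at these lengths.

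Mef2d encodes the member that is expressed widely and, in muscle, also as a splice form made during differentiation. Its start 1, from 88142372 to 88142574 on chromosome 3 with 5 transcripts, lay under one of the longest H3K4me3 peaks of each library. The peak measured 9508 bp (day 0), 7792 bp (day 1), 14401 bp (myotubes) and 9319 bp (reserve cells). Of marked protein-coding genes, 64 of 12575 (day 0), 122 of 12501 (day 1), 22 of 12772 (myotubes) and 23 of 12186 (reserve cells) had a longer promoter peak. Folds were 88.7, 99.5, 66.1 and 88.4, higher than those of 96.1%, 95.2%, 97.3% and 93.7% of marked protein-coding genes. Mef2d thus combined great length with a high fold in every state, and myotubes had the longest peak.

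The shorter peak at day 1 went with a gap in the call. A separate peak of 2409 bp with fold 54.5 (88137514 to 88139922) preceded the one of 7792 bp, which began at 88140227. At day 0, at day 1 and in myotubes the summit lay more than 1 kb past the start, so that Mef2d would be called by its summit in reserve cells alone. Merging peaks within 500 bp of each other made this domain 10505 bp long at day 1. The myotube peak, from 88137429 to 88151829, began near the place where the day 0 peak began (88137417) and reached further into the gene. It covered a stretch about 7 kb inside the gene in which the other states had a separate peak, with a fold of 3.09 and 1029 bp in day 0 cells, of 8.43 and 1741 bp in day 1 cells, and of 3.80 and 616 bp in reserve cells.

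In length, the myotube peak of Mef2d was 1.51 times that of day 0, a ratio above that of 94.3% of genes marked in both, with a median of 0.889. It was 1.85 times that of day 1 and 1.55 times that of reserve cells, above 95.6% and 86.7% of genes. With peaks merged, the myotube peak was less than 1.5 times the day 1 domain. Of the 4 Mef2 genes, Mef2c and Mef2d had a longest promoter peak at least 1.5 times longer in myotubes than at day 0, a change seen in 5.93% of protein-coding genes marked in both. With peaks merged, Mef2a passed this limit as well, with 5784 bp in myotubes, against 3466 bp at day 0. Without merging, the same 2 genes were longer in myotubes than at day 1, beside 8.17% of genes, and than in reserve cells, beside 14.6%. For Mef2c these ratios, 3.91, 3.80 and 6.71, set the start 1 peak of myotubes against the start 3 peak of the other states.

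No Mef2 gene changed by 1.5 times between day 1 and day 0, where 1.04% of genes were longer and 5.77% shorter. In reserve cells Mef2c was shorter, with 0.582 times its day 0 length, beside 19.8% of genes, and 0.566 times its day 1 length, beside 7.76%. None of the 4 was longer in reserve cells, where 0.738% of genes were longer than at day 0 and 0.686% longer than at day 1. None was shorter in myotubes, where 14.4% of genes were shorter than at day 0, 7.23% shorter than at day 1 and 3.28% shorter than in reserve cells. For Mef2c this rests on the start 1 peak. At start 3 alone its longest myotube peak was 0.599 times the day 0 and 0.582 times the day 1 length, past the limit for shorter. That length leaves out separate peaks of 230 and 763 bp called beside it in myotubes. Together the 3 peaks covered 1714 bp of the start 3 window, against 1829 bp at day 0 and 1881 bp at day 1. The limit was thus passed by the longest peak alone, not by the covered bases.

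Upstream of Mef2d a second region was marked in day 5 cells. In myotubes a peak of 2220 bp with fold 23.8 (88132664 to 88134883) ended 7489 bp before the first start, and reserve cells had 340 bp with fold 3.35 at the same place. Neither day 0 nor day 1 had a peak there. Of myotube peaks that lay within 10 kb of a protein-coding start but at no promoter, 66.8% overlapped no day 0 peak, so that a new peak of this kind is the usual case. Its height was less usual: of those 3733 new peaks 10 had a higher fold, and the medians were 452 bp and fold 4.50. Starts 2 and 3 of Mef2d, 20588 and 25880 bp further in, carried no peak in any library.

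**Figure D3:**
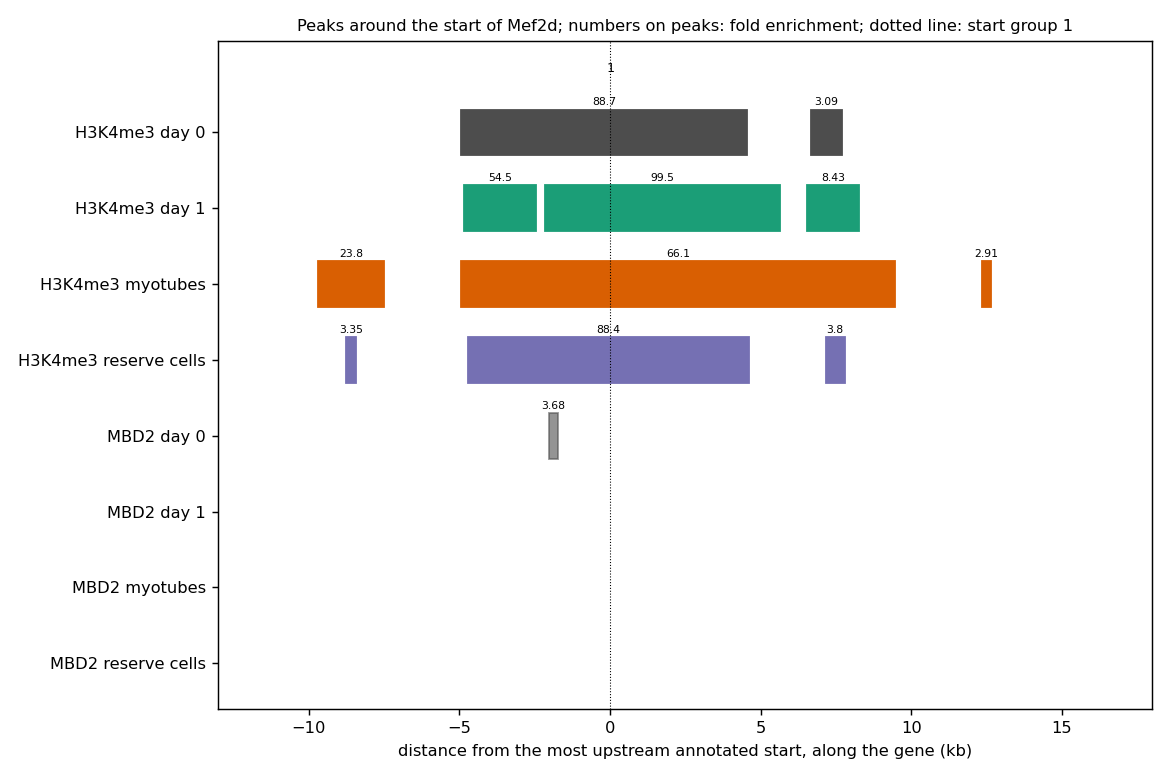
Peaks of the 8 libraries around the start of Mef2d, by distance in kb from its most upstream annotated start; bars are peaks drawn to scale and numbers their fold enrichment. The myotube domain is 14401 bp long, the upstream peak has fold 23.8 in myotubes and 3.35 in reserve cells, and the single MBD2 peak (fold 3.68) lies inside the day 0 domain.

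Mef2a encodes a widely expressed member with roles in mitochondrial and contractile genes of the heart. Its start 1, from 67372827 to 67372858 on the minus strand of chromosome 7 with 7 transcripts, was marked by a peak of 3466 bp (day 0, 67370352 to 67373817), 4871 bp (day 1), 4829 bp (myotubes, 67368744 to 67373572) and 3889 bp (reserve cells). The peak was thus shortest at day 0 and reached further into the gene in the other states, by most at day 1 and in myotubes. Its length exceeded that of 70.4%, 93.0%, 90.3% and 90.7% of marked protein-coding genes in the 4 states. The day 1 peak was 1.41 times the day 0 one, a ratio above that of 98.5% of genes, whose median was 0.909, although it stayed under the 1.5 times used for a call. Over day 0 the ratio was 1.39 in myotubes and 1.12 in reserve cells, above 92.7% and 97.8% of genes, with medians of 0.889 and 0.788.

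In fold Mef2a ranked low while it ranked high in length. The folds were 25.4, 39.1, 30.7 and 35.1, above those of 16.2%, 25.2%, 38.4% and 23.0% of marked genes. The pileups behind them were 114, 113, 73 and 72 fragments, over local backgrounds of 3.54, 1.91, 1.41 and 1.08, highest at day 0. Its promoter window held 179 CpGs, more than 98.8% of windows, and overlapped that of Gm44668, a predicted gene whose signal cannot be parted from it. The Mef2a start also held a MEF2 motif, which is shown in capitals in chr7:67372841-67372870 (−), from the same RefSeq build.
Mef2a start: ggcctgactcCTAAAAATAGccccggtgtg
The first 2 bases of the motif lie before the first annotated start and the other 8 from it onward. In RefSeq's short promoter windows, from 250 bases before a start to just past it, 1 of 6 Mef2 entries held the motif, this one, and 3.69% of all 32851 entries did. In the wider windows of 1 kb either side of a start, 25.9% hold at least 1 MEF2 motif. The marked groups Mef2a start 1, Mef2c start 2 and Mef2c start 3 held 2, 2 and 1. The other marked groups, Mef2b start 1, Mef2c start 1 and Mef2d start 1, held 0. Unmarked groups also held the motif, with 2 and 1 at Mef2a starts 2 and 3 and 1 each at Mef2c starts 5 and 6. Starts 2 to 5 of Mef2a, from 55893 to 106696 bp further in, had no peak in any state. Weak intronic peaks were called in myotubes (495 bp, fold 4.05) and, elsewhere in the gene, in day 0 cells (256 bp, fold 3.64).

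Mef2b encodes the smallest of these proteins, best known from germinal centre B cells. A strong peak covered its start 1, at 70139711 on chromosome 8, with 3199 bp (day 0), 3081 bp (day 1), 3132 bp (myotubes) and 2729 bp (reserve cells). The folds of 91.8, 85.1, 60.7 and 84.0 exceeded those of 96.9%, 87.3%, 94.7% and 91.5% of marked genes. This was the steadiest of the 4 genes in length, within 0.853 to 1.15 of the other state in every comparison. Only 1 transcript, Mef2b-205, begins there, and the same peak covers the starts of Borcs8, a subunit of a lysosome-positioning complex, and Rfxank, a factor for class II histocompatibility genes. These peaks alone do not tell which of the 3 genes the mark belongs to.

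The other 4 Mef2b transcripts begin at start 2, from 70152778 to 70152781 and 13067 bp downstream. No peak of either antibody overlapped its promoter in any library. Its window held 34 CpGs, close to the median of 31. About 6 kb past it, a small intronic peak was called in reserve cells (275 bp, fold 4.24) and in day 0 cells (373 bp, fold 5.66). Counted at the start of most of its transcripts, Mef2b was thus the member without promoter H3K4me3.

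**Figure D4:**
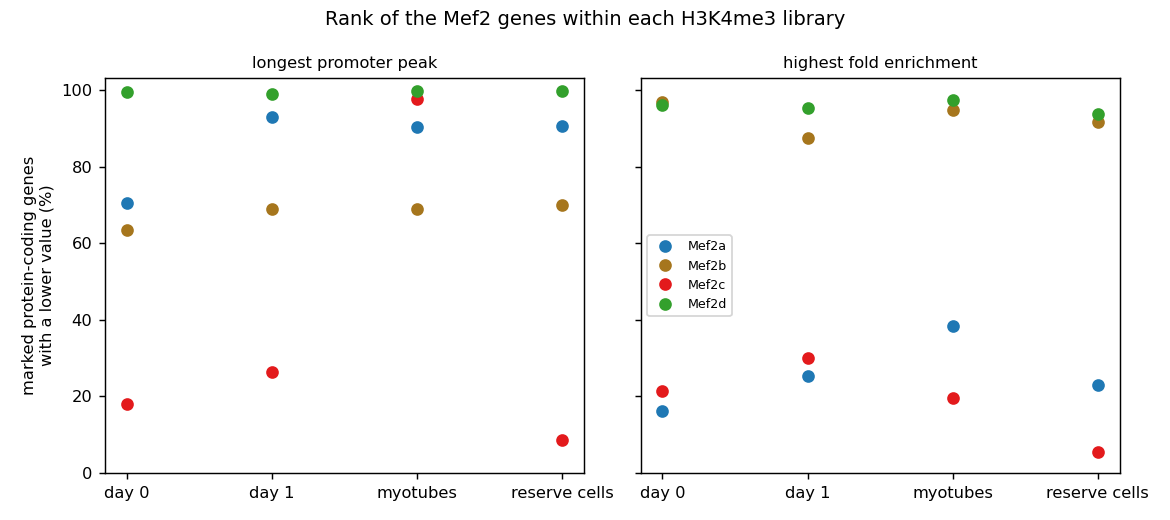
Share of marked protein-coding genes with a lower value than each Mef2 gene in the same H3K4me3 library, for the longest promoter peak (left) and the highest fold (right), in percent. In length Mef2c stands at 97.7% in myotubes and at 8.70% in reserve cells, while Mef2d stays above 99% in every state.

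At day 0 MBD2 peaks met the promoter of 1 of the 4 genes, Mef2c, beside 12.5% of protein-coding genes and 21% of those with promoter H3K4me3. That peak (83652198 to 83652906, 709 bp, fold 7.35) rested on a pileup of 9 fragments, and its summit lay in an intron just before start 10. Start 10 is the first base of a transcript, Mef2c-211, whose 5′ end the annotation marks as incomplete, and without such transcripts no Mef2 gene was called. No H3K4me3 peak lay there, and the starts marked by H3K4me3 had no MBD2 peak.

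Near Mef2d an MBD2 peak of 280 bp (88140349 to 88140628, fold 3.68, a pileup of 4 fragments) was called at day 0. It lay 1744 bp before the first start, outside the 1 kb used for a promoter but inside the H3K4me3 domain of that state. Past the 3′ end of Mef2d, 2 more day 0 peaks of MBD2 (290 and 532 bp, folds 4.32 and 5.70) lay at the promoter of 1700113A16Rik, within 10 kb of Mef2d start 3. In the 3 later lists no MBD2 peak met a Mef2 promoter or lay within 10 kb of a Mef2 start. In those lists 1.04% (day 1), 0.684% (myotubes) and 0.264% (reserve cells) of protein-coding genes were called, so that 0 of 4 is what such short lists give at most genes. Mef2a and Mef2b had no MBD2 peak within 10 kb of any start in any library.

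The genes most like each member over 8 values, the log2 of promoter peak length and of fold in the 4 H3K4me3 libraries, were found by the root mean square difference. For Mef2c the 3 nearest were Nrxn3, a synaptic adhesion protein (0.24), Etl4 (0.44) and Onecut2, a transcription factor (0.49). Nrxn3 measured 1874, 1795, 6017 and 944 bp over the 4 states, with folds of 27.1, 29.3, 23.0 and 10.1. For Mef2d they were Rara, a retinoic acid receptor (0.23), Nfe2l1 (0.26) and Runx1 (0.27), both transcription factors. Rara measured 10276, 10216, 10442 and 9732 bp and thus did not share the longer myotube peak of Mef2d. For Mef2a they were Ndufb11 and Rbm10, which share a peak (0.19), and Ppp2r3d (0.21). For Mef2b, Borcs8 and Rfxank carried the same peak, and Prdm15 followed (0.097). The points share the same 4 libraries, and likeness here says nothing of control.

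Genes that act on MEF2 proteins were mostly marked. Of 19 repressors and signalling genes, among them class IIa deacetylases, calcineurin subunits, calcium-dependent kinases and MAP kinases, 19 (day 0), 18 (day 1), 18 (myotubes) and 16 (reserve cells) were marked, beside 57.3%, 57%, 58.2% and 55.5% of all protein-coding genes. Camk4, a calcium-dependent kinase, had no promoter peak after day 0, against 530 bp with fold 4.31 at day 0. Hdac9, a class IIa deacetylase and itself a MEF2 target, had 2444 bp (day 0), 3291 bp (day 1) and 3727 bp (myotubes), with folds of 24.3, 18.6 and 16.4, and no promoter peak in reserve cells. Prkd1, a kinase that phosphorylates those deacetylases, had 1126, 744 and 675 bp in the same 3 states and none in reserve cells. Losses over day 0 were thus 1 (day 1), 1 (myotubes) and 3 (reserve cells), and over all marked protein-coding genes they were 1.87%, 2.72% and 4.12%, also highest in reserve cells.

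All 21 coactivators and partners, such as the acetyltransferases Ep300 and Crebbp and the chromatin remodelling subunits Smarca4 and Smarcd3, were marked in all 4 states, beside the same shares of 57.3%, 57%, 58.2% and 55.5%. Vgll2, a muscle cofactor of TEAD proteins, had 2872 bp (day 0), 2847 bp (day 1), 2168 bp (myotubes) and 295 bp (reserve cells), with folds of 27.3, 51.9, 21.1 and 4.10. It was the narrowest of this list in reserve cells. Among the 4 myogenic regulatory factors, Myod1, Myf5 and Myf6 were marked in all states, and Myog, the regulator of terminal differentiation, from day 1 on.

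Of 25 known MEF2 target genes, most of them muscle genes, 13 (day 0), 22 (day 1), 25 (myotubes) and 19 (reserve cells) carried promoter H3K4me3. These were 52%, 88%, 100% and 76% of the list, beside 57.3%, 57%, 58.2% and 55.5% of all protein-coding genes. Of the 12 without it at day 0, 9 (day 1), 12 (myotubes) and 7 (reserve cells) gained a peak, while 1.72%, 5.76% and 1.38% of unmarked protein-coding genes did. The list's median length, with unmarked genes at 0, was 524, 2302, 5310 and 1877 bp over the 4 states. The median of all marked protein-coding genes, which leaves unmarked genes out, was 2757, 2490, 2432 and 2177 bp. Both medians cover marked genes alone only in myotubes, where all 25 targets were marked. Many of these targets are genes of the contractile apparatus. The gains with the highest folds in myotubes were Stac3 (55.8), which couples excitation to contraction, Myom2 (53.5), an M-band protein, Xirp1 (51.7), an actin-binding protein, and Myog (45.4). At day 1 the folds of these 4 were 11.3, 12.9, 11.4 and 11.1, and in reserve cells 4.85, 10.3, 5.96 and 7.08. These 4 were marked from day 1 on. They were chosen by their myotube folds, so that lower folds in the other states follow in part from the choice.

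Reserve cells lacked a promoter peak at Mb, Myl2, Smpx, Srpk3, Hspb7 and Hdac9. Mb, Myl2 and Hspb7 were unmarked at day 0 and day 1 as well and carried 5310, 1797 and 7161 bp in myotubes. Srpk3, a muscle kinase controlled by MEF2, had 1917 bp in myotubes, against 340 bp at day 1. Smpx, a small muscle protein, had 9223 bp in myotubes, against 327 bp at day 1. Jun, a target with wider roles, changed little, with 6616, 6068, 6667 and 5867 bp.

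**Figure D5:**
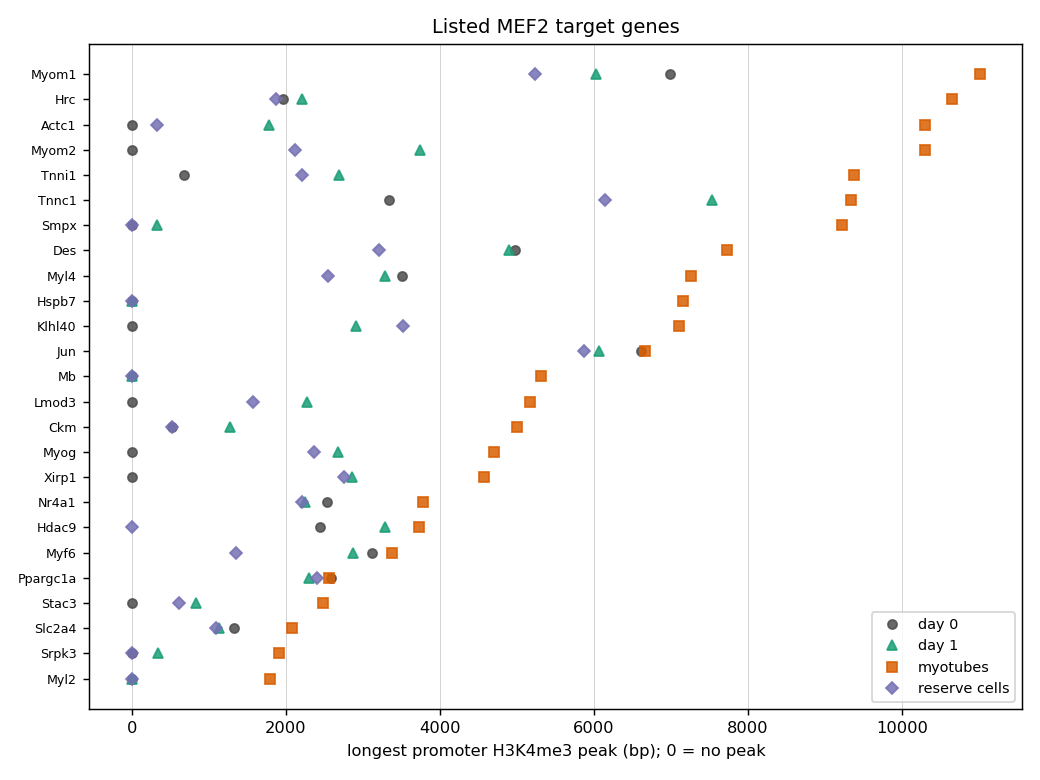
Longest promoter H3K4me3 peak in bp of the 25 listed MEF2 target genes in each state, sorted by the myotube value, with 0 for no peak; each symbol is 1 library. Myotubes lie furthest right at every gene but Ppargc1a, and 6 genes lie at 0 in reserve cells.

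MBD2 met the promoters of these lists mainly at day 0, the state with by far the most MBD2 peaks. MBD2 was called then at 8 of the 19 repressors and signalling genes (42.1%) and 6 of the 21 coactivators and partners (28.6%). Of the 25 targets it was called at 5 (20%), and of the 4 myogenic regulatory factors at none. The share was 12.5% of all protein-coding genes and 21% of those with promoter H3K4me3 at day 0. All genes of the first 2 lists had that H3K4me3. Among the first list Hdac4 (fold 12.3), Rcan1 (8.61), an inhibitor of calcineurin, and Camk2d (7.17) had the highest folds. Among the second they were Tcf3 (16.2), a partner of MyoD proteins, Mrtfa (14.0), Maml1 (8.82) and Kdm6a (7.89). The 5 targets were Nr4a1, Jun, Slc2a4, Myom1 and Stac3, with folds from 4.41 to 6.62. In later states no target and no repressor or signalling gene was called. Of all protein-coding genes, 1.04% (day 1), 0.684% (myotubes) and 0.264% (reserve cells) were called, so that such short lists miss most genes. Tcf3 was called in all 4 states, with folds of 16.2, 8.55, 6.63 and 7.71, and Vgll4, a TEAD cofactor, was called in myotubes (5.07) and not at day 0.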

How the data were processed

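Trimming with Trim Galore, alignment to mm10 with Bowtie2, filtering with SAMtools and peak calling with MACS2 stand in the submitters' processing notes. Tool versions, MACS2 settings, the number of reads and any use of IgG as control were not stated. The design text speaks of further filtering of peaks, and the lists do not show if it had been applied. Each deposited list has 1 library's peaks. The deposited pileup is a signal, the fragments over the summit. The deposited fold is a ratio of pileup to local background, per the file headers. The deposited −log10 p-value and q-value columns have damaged names and were identified by their place in the layout. Local background was computed as (pileup + 1)/fold − 1, and its lowest value per library ran from 0.286 to 0.947 for MBD2 and from 1.08 to 1.47 for H3K4me3, the one available measure of depth.

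Peaks of the autosomes (1 to 19), X and Y were placed on the full GENCODE M21 annotation with Python 3.11.15 and pandas 2.3.3, tested on simulated peaks first. Sequences and motif counts on both strands came from RefSeq GRCm38.p6. Named genes were the members, genes sharing their promoter peaks, the 3 genes most like each member, which used log2(length + 100) and log2(fold + 1), and examples of highest fold from each list, up to 4 per direction. Other genes of the lists were named after their values were seen. Members and lists were chosen with earlier results of these data known. Another 9 settings changed the promoter width, the peaks kept, the overlap needed, the transcripts used and the merging of peaks, and 2 further ones on transcripts were chosen after seeing the data.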

Additional observations from a re-analysis of the deposited data

How the results depend on the processing

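Each count of marked, gaining or losing Mef2 genes and start groups was recomputed under 9 settings and 2 added later. Of these values 248 stayed within 1.5 times the one reported and 16 did not. With the stronger 50% of each list by −log10 q, 2 Mef2 genes were marked in reserve cells, and marked start groups were 3 at day 1 and 2 in reserve cells. Under this setting 1 gene gained in myotubes over day 1 and 2 over reserve cells, and 1 lost at day 1 over day 0, 2 in reserve cells over day 0 and 1 in reserve cells over day 1. This cut keeps most peaks in myotubes, the longest H3K4me3 list, and the shares of all genes under it were not computed. With equal numbers of peaks in each list, all of these gains and losses were 0. With the summit required in the promoter, 3 start groups were marked at day 0, 1 gene gained in reserve cells over day 0, 1 gained in reserve cells over day 1, and 1 lost in myotubes over reserve cells, all 3 at Mef2d, whose summit lay in the promoter in reserve cells alone. Mef2 genes with promoter MBD2 at day 0 numbered 2 with 2 kb either side of a start, 0 with the 111 strongest peaks of each MBD2 list, 0 with basic transcripts and 0 without transcripts of incomplete 5′ end.

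Of the values for single genes and starts, 541 stayed the same and 31 moved. The Mef2c start 1 peak in myotubes was kept with 15920 peaks in every H3K4me3 list, with fold at least 5 and among the stronger 50%, and measured 8666 bp with peaks merged. The Mef2c start 3 peak was not among the stronger 50% at day 1, in myotubes or in reserve cells. No paired analysis was possible because each antibody and state had 1 library, and no replicate could be left out. A peak called in one list and not in another may differ by depth alone, and the MBD2 lists after day 0 are too short to show absence.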
